A study of Anolis chlorocyanus and Anolis cybotes and Anolis osa with 24 samples.

Results

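The genes described here are the 45 whose counts were highest in Anolis osa in both of its sampled muscles, out of 25920 identifiers in the deposited table. Levels are given as CPM, each count divided by the total of its library and multiplied by 1000000, and x is log2(CPM + 1). A gene was taken when the lowest x of the 6 osa libraries lay above the highest of the other 18 libraries and the osa mean of x was at least 2 above the mean of the others. Its osa mean also had to reach 10 CPM. Its leg minus jaw difference in x, averaged over pairs, had to stay under 1 in size within every species and under 0.5 over all 12 pairs. The genes were thus chosen by their measured osa difference and muscle difference, and both are given below as descriptions, from which nothing is concluded.

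The series measured RNA from whole muscle of males of 4 lizard species by sequencing, in 8 groups of 3 libraries. The groups were osa leg and osa jaw, sagrei leg and sagrei jaw, chlorocyanus leg and chlorocyanus jaw, and cybotes leg and cybotes jaw. Within a species each leg library shares a number in its title with a jaw library (04, 05 and 07 in osa, 15, 16 and 17 in sagrei, 04, 06 and 08 in chlorocyanus, 01, 03 and 08 in cybotes). No treatment, age or place of origin is given in the labels used here. Library totals ranged from 1342838 to 1570679 counts in osa and from 1315319 to 1962685 in the other species. In a single library 3 counts, the limit that a count of 0 allows, correspond to 1.53 to 2.28 CPM, and this covers counting error only.

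Anoles are a large genus of lizards that has split many times on islands and on the mainland. Osa is a mainland species of the Norops group, to which sagrei, the brown anole, also belongs, while chlorocyanus and cybotes come from Hispaniola. Between species, the level of an RNA can differ through regulatory change, gain or loss of gene copies, or a changed mix of cells in the tissue. The identifiers carry the Ensembl prefix of a different anole, Anolis carolinensis. All species were counted on these same identifiers, so a sequence difference that alters read mapping and a difference in RNA amount cannot be told apart here. In whole muscle, fewer cells of a type and less RNA per cell cannot be told apart either. The table pairs its identifiers with no gene names, so no function can be given for any of the 45 genes and the labelled tissue could not be checked against marker genes. Only 4 identifiers are printed. The genes are otherwise called by rank, from gene 1 with the highest osa mean CPM to gene 45 with the lowest. CPM is not divided by gene length, so the ranks are labels and do not compare transcript levels between genes.

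Together the 45 genes took a small part of the counts. The choice of genes required that part to be larger in every osa library than in any other library. Their share was 0.130% ± 0.0104 in osa leg and 0.145% ± 0.0136 in osa jaw (SD, n = 3 each). It was 0.0216% ± 0.00430 in sagrei leg and 0.0213% ± 0.000702 in sagrei jaw, 0.0280% ± 0.00626 in chlorocyanus leg and 0.0256% ± 0.00701 in chlorocyanus jaw, and 0.0204% ± 0.00245 in cybotes leg and 0.0174% ± 0.00284 in cybotes jaw. The lowest osa library was osa leg 05 at 0.120% (exact Clopper-Pearson 95% interval 0.114% to 0.125%). The highest library of the other species was chlorocyanus leg 08 at 0.0351% (0.0325% to 0.0378%). Its partner chlorocyanus jaw 08 was next at 0.0335% (0.0309% to 0.0363%), and these libraries also had the highest TMM scaling factors of the series, 1.23 and 1.25. The part of these libraries in the chlorocyanus level was not tested. All 45 genes were detected in every osa library, as the choice also required, against 29 to 37 of them in single libraries of the other species.

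**Figure D1:**
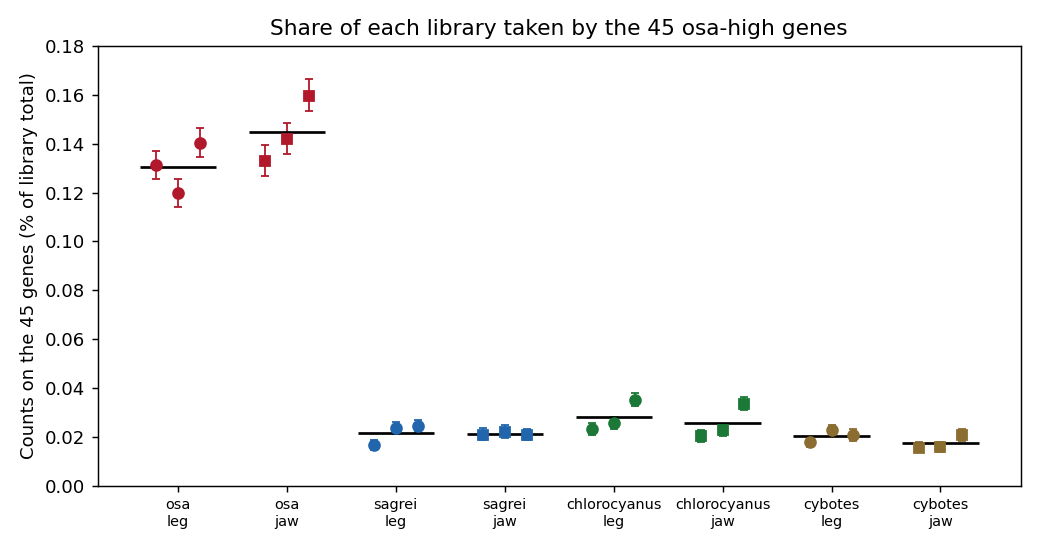
Percent of each library's counts that fell on the 45 genes, by species and muscle. Points are libraries with exact 95% binomial intervals, horizontal bars are group means, circles are leg and squares are jaw. The 6 osa libraries lie between 0.120% and 0.160%, and the other 18 between 0.0157% and 0.0351%. The choice of genes required this separation.

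Most of the 45 genes were at moderate or low counts even in osa. Their osa means ran from 10.9 to 125 CPM with a median of 19.0 CPM, and 24 genes stood under 20 CPM while 8 reached 50 CPM. The osa minus other difference of x ran from 2.04 to 5.36 with a median of 2.75, and it was at least 3 for 17 genes and at least 4 for 3. Over all 6248 genes with an osa mean of at least 10 CPM, the median difference was 0.23 in favour of osa, and with TMM-scaled library sizes it was 0.10. On the TMM-scaled values the lowest difference of the 45 genes was 1.91, and 36 of the 45 still met every criterion. Their shared direction under that scaling was fixed by the choice of a difference of at least 2. Among those 6248 genes, 179 (2.86%) had all osa libraries above all others, 69 (1.10%) also had a difference of at least 2, and the 45 genes make up 0.720%. In the opposite direction, 40 of 6207 genes (0.644%) had all osa libraries below all others. These shares describe the choice of genes and nothing is read from them. Just inside the limit of 2 the differences were 2.04, 2.04 and 2.07, and the nearest genes outside it, which met every other criterion, had 1.99, 1.99 and 1.99.

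The gap between osa and the rest was wide for some genes and narrow for others. The lowest osa library exceeded the highest other library by a ratio of 1.01 to 19.2, with a median of 1.75. For 16 genes the ratio was at least 2 and for 8 at least 4. The narrowest gaps belonged to genes 2, 9 and 3, at ratios of 1.01, 1.05 and 1.09. The widest belonged to genes 8, 34 and 12, at 19.2, 14.4 and 6.70.

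**Figure D2:**
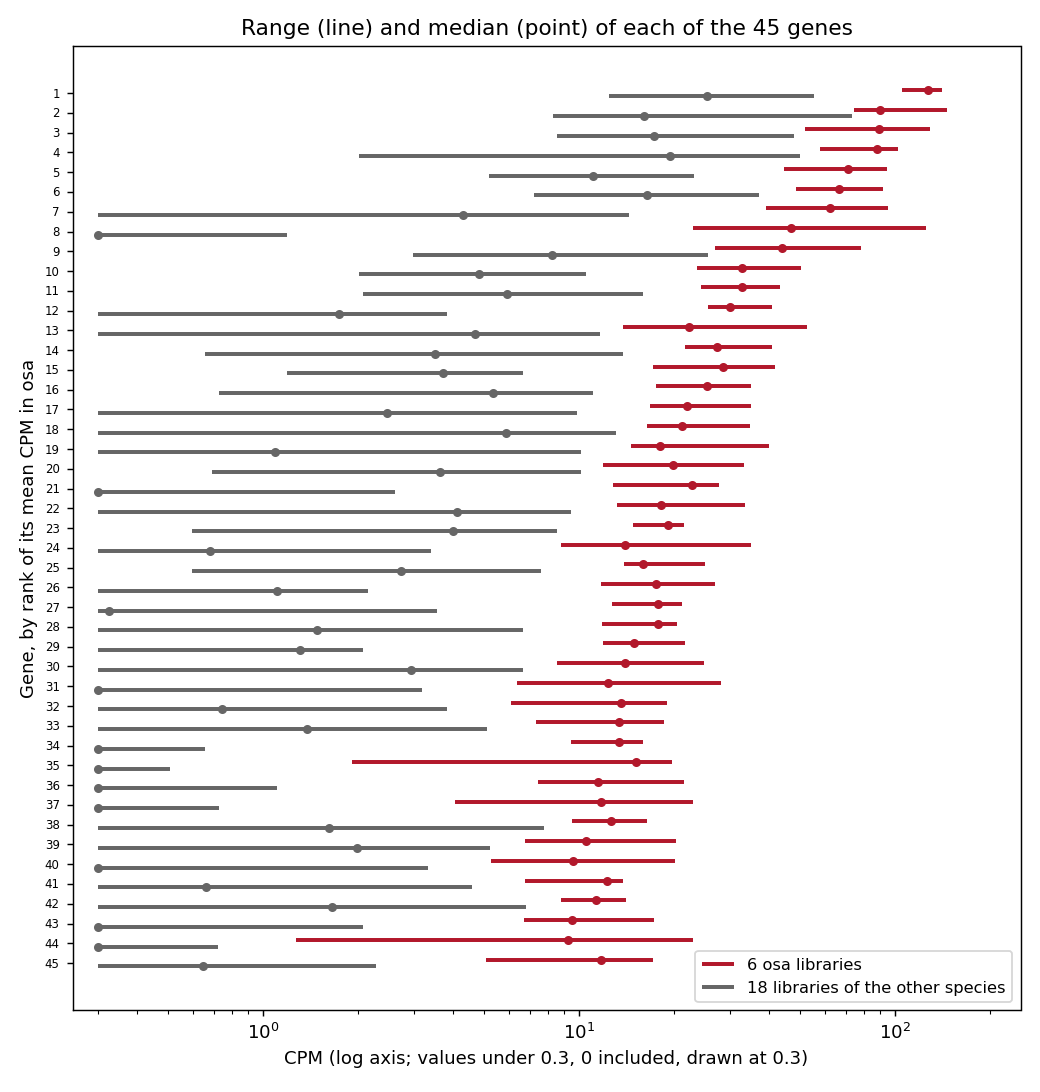
Range (line) and median (point) of CPM in the 6 osa libraries and in the 18 libraries of the other species for each of the 45 genes, ordered by osa mean, on a log axis. The osa range lies to the right of the other range for every gene, as the choice of genes required, with ratios across the gap from 1.01 to 19.2.

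ENSACAG00000002976 had the highest osa mean of the set and is an example of a gene that all 4 species express. It stood at 127, 106 and 129 CPM in osa leg 04, 05 and 07 and at 116, 133 and 141 CPM in osa jaw. In sagrei it had 12.5, 38.3 and 28.7 CPM in leg and 24.5, 33.5 and 24.2 CPM in jaw. In chlorocyanus it had 24.6, 31.7 and 48.4 CPM in leg and 16.8, 38.1 and 55.6 CPM in jaw, and in cybotes 18.1, 26.2 and 28.5 CPM in leg and 17.2, 14.8 and 24.1 CPM in jaw. The osa libraries were tightly grouped, and chlorocyanus 08 came nearest to them. The osa mean was 125 ± 12.7 CPM (SD, n = 6 libraries of 3 numbers), and the difference in x was 2.21.

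ENSACAG00000032837, which is gene 8, had the largest difference of the set, 5.36 in x, and was nearly absent outside osa. It had 42.1, 23.0 and 51.6 CPM in osa leg 04, 05 and 07 and 57.9, 34.3 and 126 CPM in osa jaw. The 18 other libraries held 8 counts together, against 485 in osa, and 13 of them held none. All 6 cybotes libraries were at 0. If the 6 cybotes libraries together are given 3 counts, the limit for a count of 0, the pooled osa level was at least 165-fold higher.

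Between these cases lay genes with a low but repeated signal outside osa. Gene 12 had 32.2, 26.4 and 40.7 CPM in osa leg 04, 05 and 07 and 25.7, 36.5 and 27.8 CPM in osa jaw. The other 18 libraries had a lowest value of 0, a median of 1.75 CPM and a highest value of 3.83 CPM, with 50 counts in all. No osa library came near that range, and the difference in x was 3.66. Gene 5 had 84.9, 44.6 and 55.4 CPM in osa leg and 88.7, 57.3 and 94.4 CPM in osa jaw. Its other libraries ran from 5.19 CPM over a median of 11.1 CPM to 23.1 CPM in cybotes leg 08, and its difference in x was 2.53. Gene 6 was the member with the smallest difference, 2.04, with 48.7, 68.3 and 54.8 CPM in osa leg and 91.6, 81.2 and 64.6 CPM in osa jaw. Its highest value elsewhere was 37.2 CPM in cybotes jaw 08, while the median of the other 18 was 16.4 CPM.

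The level outside osa ranged from absence to a clear signal. No library of the other species was at 0 for 15 genes, while 11 genes were at 0 in at least 9 of the 18. In all 6 libraries of a species, 3 genes were at 0 in sagrei, 5 in chlorocyanus and 4 in cybotes, and no gene was at 0 in all 18. Against a floor of 3 counts over the 6 libraries of the species, these genes were at least 35.1-fold to 208-fold higher in osa. The largest of these bounds was that of gene 7 against chlorocyanus. The median over the 45 genes of the species mean was 19.0 CPM in osa, 1.97 CPM in sagrei, 2.33 CPM in chlorocyanus and 1.47 CPM in cybotes. The medians of the other species thus lie near the single-library limit, and low values in single libraries there are not separable from 0. These medians are of means over 6 libraries, for which 3 counts correspond to 0.304 to 0.338 CPM.

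For 4 genes the 18 other libraries held 1 to 3 counts in all. Gene 34 had 114 counts in osa and 2 elsewhere, a ratio per library total of 181 (exact 95% interval 49.1 to 1517). Its osa values were even, at 11.2, 9.47 and 11.5 CPM in leg and 15.4, 15.6 and 16 CPM in jaw. Gene 35 had 112 counts in osa and 1 elsewhere, a ratio of 357 (62.7 to 14210). Gene 37 had 111 and 3 counts, a ratio of 118 (39.3 to 580), and gene 44 had 96 and 2, a ratio of 153 (41.2 to 1280). The intervals cover counting error only and test nothing, since the genes were selected on this difference. In single osa libraries gene 35 had 3 to 29 counts and gene 44 had 2 to 34.

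**Figure D3:**
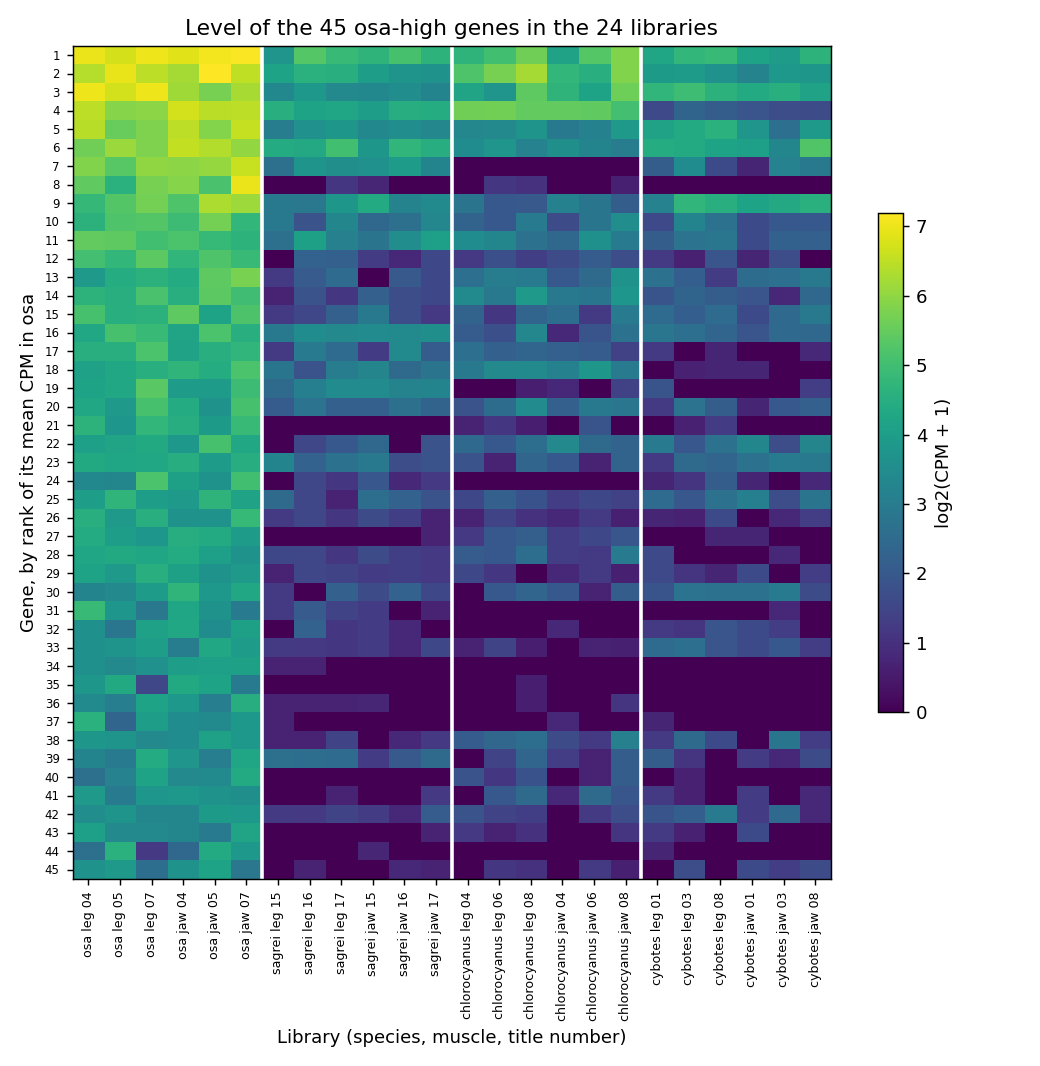
log2(CPM + 1) of the 45 genes (rows, by rank of osa mean CPM) in the 24 libraries (columns, by species, muscle and title number). The 6 osa columns at the left are lighter in every row, and the darkest cells elsewhere are libraries with 0 counts, which occur for 30 of the 45 genes.

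Whether the 45 genes differed among the species in which they were low was tested without any osa library. The choice of genes had also used the other 18 libraries, through their highest value, their mean and their muscle difference. The test is therefore not independent of that choice. The counts of leg and jaw were summed for each title number, which gave 3 sums for each of sagrei, chlorocyanus and cybotes. Only 23 of the 45 genes had enough counts in these 9 sums to be tested, so nothing is said of the other 22. A gene with few counts could enter this test through a single species in which it was high. Gene 19 is an example, with a mean of 8.23 CPM in sagrei, 0.485 CPM in chlorocyanus and 0.691 CPM in cybotes. Of the 23, 10 differed among these species by edgeR's quasi-likelihood F-test at a Benjamini-Hochberg adjusted p under 0.05. Among all 9487 genes tested the share was 29.1%. Without cybotes 08 the count was 6 of 26 tested, where the share over all genes was 21.3%. With the leg libraries alone it was 6 of 13 tested, with 22.0% over all genes, and with the jaw libraries alone 8 of 13, with 27.4% over all genes. Since entry into the test could depend on the difference tested, nothing is read from setting these counts beside the shares over all genes.

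The order of the low species by mean level was not the same from gene to gene. The adjusted p-values given with these orders are from the F-test of any difference among the species, and the orders themselves were not tested. Gene 4 stood at 19.0 ± 0.555 CPM in sagrei, 43.6 ± 5.0 CPM in chlorocyanus and 2.76 ± 0.361 CPM in cybotes (SD over 3 numbers, edgeR adjusted p = 0.000288). Chlorocyanus was thus next below osa, which had 81.0 ± 12.8 CPM, and cybotes was lowest. Gene 18 showed the same order, with 5.79 ± 1.97 CPM in sagrei, 8.92 ± 2.15 CPM in chlorocyanus and 0.323 ± 0.0332 CPM in cybotes (edgeR adjusted p = 0.00136, osa 22.9 ± 4.57 CPM). Gene 2 had 16.9 ± 0.744 CPM in sagrei, 44.3 ± 18 CPM in chlorocyanus and 12.5 ± 1.46 CPM in cybotes (edgeR adjusted p = 0.00219, osa 101 ± 29.7 CPM). Gene 9 was instead highest in cybotes, at 19.1 ± 5.59 CPM, with 10.7 ± 3.06 CPM in sagrei and 4.86 ± 1.89 CPM in chlorocyanus (edgeR adjusted p = 0.0174, osa 49.8 ± 15.9 CPM). Over all 45 genes by mean x, the species next below osa was chlorocyanus for 19 (42.2%), sagrei for 16 (35.6%) and cybotes for 10 (22.2%). Among the 6248 genes with an osa mean of at least 10 CPM, the highest of these species was chlorocyanus for 37.6%, sagrei for 35.1% and cybotes for 27.3%, and no difference between the 45 genes and the rest is read from these shares.

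Sagrei, the other species of the Norops group, was then set against the mean of chlorocyanus and cybotes. That mean was taken on the log scale of the fit, so a species near 0 lowers it strongly. Of the 23 genes tested, 4 were higher and 2 lower in sagrei by edgeR's quasi-likelihood test at an adjusted p under 0.05. Over all genes tested, 7.55% were higher, 6.48% lower and 14.0% either. The median log2 fold change was 0.15 over the 23 genes and 0.02 over all genes. The limit on entry into the test and the use of these libraries in the choice of genes apply here too. Nothing is therefore read from setting values of the 23 genes beside those over all genes. Gene 7 had 5.25, 12.1 and 10.7 CPM in sagrei leg and 11.5, 14.4 and 8.50 CPM in sagrei jaw, against 0 in all 6 chlorocyanus libraries and 0.690 to 10.3 CPM in cybotes. Its edgeR adjusted p was 0.00245, and no fitted fold is given for it because that would depend on the value assumed for chlorocyanus. Gene 19 averaged 8.23 ± 1.01 CPM in sagrei, against 0.485 ± 0.554 CPM in chlorocyanus and 0.691 ± 0.673 CPM in cybotes (SD over 3 numbers, log2 fold change 3.75, SE 0.62, edgeR adjusted p = 0.00337). No sagrei library of this gene overlapped any library of chlorocyanus or cybotes. Both of these calls held with any single title number left out. Gene 19 had few counts in chlorocyanus and cybotes, and gene 7 had 0 in chlorocyanus and few in cybotes 01. Each needed the sagrei sums to pass the low-count filter, so neither call is independent of that filter.

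The other 4 calls were weaker. Genes 18 and 16 were higher in sagrei than in the log-scale mean of the other pair (log2 fold change 1.67, SE 0.42, edgeR adjusted p = 0.0234, and 1.20, SE 0.34, edgeR adjusted p = 0.0388). For gene 18 sagrei was not the higher species, at 5.79 CPM against 8.92 CPM in chlorocyanus. Its level in cybotes was 0.323 CPM, which set the mean of the pair low. The lower calls were ENSACAG00000011124, which is gene 14, and ENSACAG00000015712, which is gene 3. ENSACAG00000011124 averaged 2.04 ± 0.426 CPM in sagrei, against 9.22 ± 3.64 CPM in chlorocyanus and 2.99 ± 0.796 CPM in cybotes (log2 fold change -1.36, SE 0.41, edgeR adjusted p = 0.0488). This gene needed the chlorocyanus sums to pass the low-count filter, so its call is not independent of that filter. ENSACAG00000015712 averaged 10.1 ± 1.66 CPM in sagrei, against 26.9 ± 15.8 CPM in chlorocyanus and 23.1 ± 2.99 CPM in cybotes (log2 fold change -1.25, SE 0.32, edgeR adjusted p = 0.0247). Leaving out single title numbers ended these calls in part. For ENSACAG00000011124 the edgeR adjusted p was 0.0578 to 0.163 over the 9 omissions, and for gene 16 it was above 0.05 in all of them but that of chlorocyanus 08. For ENSACAG00000015712 it was 0.0820, 0.0561 and 0.0982 without sagrei 15, 16 and 17, and for gene 18 it was 0.0593, 0.0501, 0.101 and 0.0661 without cybotes 03, cybotes 08, sagrei 15 and sagrei 17. The count of calls was 3 without cybotes 03, cybotes 08 or sagrei 16 and 2 without sagrei 15 or sagrei 17. The share over all genes fell as well, to 10.5%, 11.3% and 7.26% without cybotes 03, cybotes 08 and sagrei 16 and to 8.04% and 8.75% without sagrei 15 and sagrei 17. The count was 2 of 13 tested with the leg libraries alone and 4 of 13 with the jaw libraries alone, where 9.16% and 12.4% of all genes were called.

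**Figure D4:**
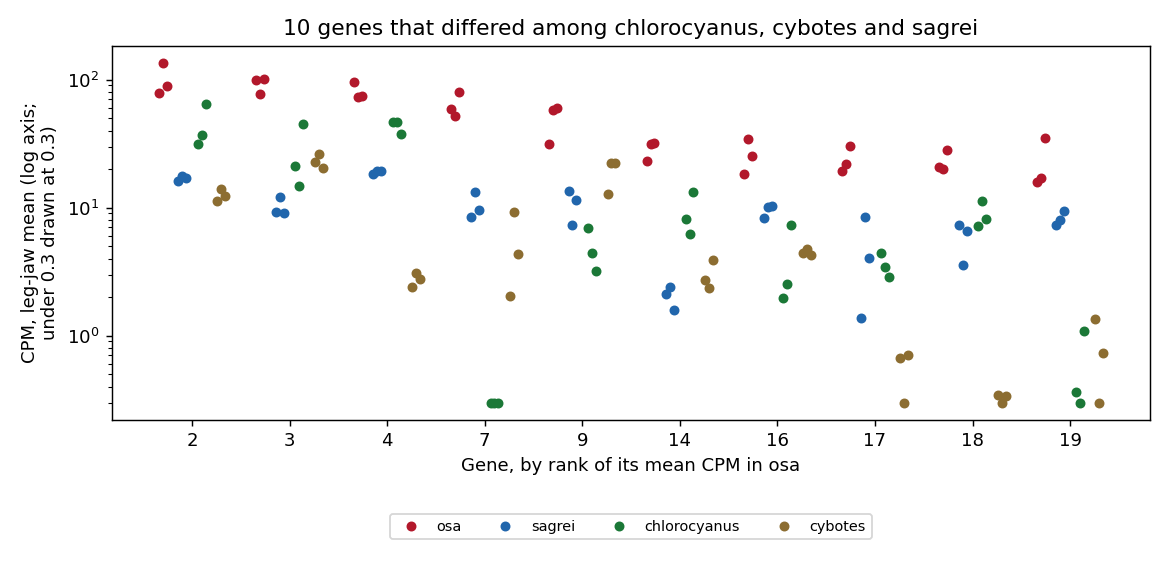
CPM of the 10 genes that differed among sagrei, chlorocyanus and cybotes, as the mean of leg and jaw of each title number (points, 3 per species), on a log axis, with osa shown for comparison. For gene 4 chlorocyanus lies between osa and sagrei with cybotes lowest, and for genes 7 and 19 sagrei is the species nearest to osa.

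Levels were also compared among the title numbers within osa. The leg and jaw libraries of a number deviated together, with correlations over the 45 genes of 0.523 for 04, 0.677 for 05 and 0.633 for 07. Each is a description over genes of 1 pair of libraries, and the deviations of the 3 numbers sum to 0. Averaged over leg and jaw, the range of x between the osa numbers had a median of 0.71 over the 45 genes and 0.60 over all 6248 genes with an osa mean of at least 10 CPM. It was at least 1 for 13 of the 45, a count with no share over all genes beside it, from which nothing is read. Number 07 was the highest for 23 of the 45 genes, or 51.1%, against 41.4% of those 6248.

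Of the 45 genes, 4 differed among the osa numbers by edgeR's quasi-likelihood F-test at an adjusted p under 0.05. The share over all 9123 genes tested was 14.1%. All 45 passed the filter on low counts for this fit, through the osa groups, and the choice of genes also used the osa values, so nothing is read from setting 4 of 45 beside that share. ENSACAG00000032837 was highest in 07 and lowest in 05 in both muscles, with the values given above (edgeR adjusted p = 0.0253). Gene 20 had 33.1 CPM in leg and 33.3 CPM in jaw of 07, against 19.1 and 20.5 CPM in 04 and 13.5 and 11.9 CPM in 05 (edgeR adjusted p = 0.0303). Gene 24 had 35 CPM in leg and 31.2 CPM in jaw of 07, against 9.21 and 16.1 CPM in 04 and 8.79 and 11.9 CPM in 05 (edgeR adjusted p = 0.0372). Gene 2 was instead highest in 05, at 124 CPM in leg and 146 CPM in jaw, against 83.5 and 74.0 CPM in 04 and 88.5 and 91.0 CPM in 07 (edgeR adjusted p = 0.0405). These calls were not firm. DESeq2 called 0 of the 45 and 9.55% of all genes, and it had 3 of the 45 at an unadjusted p under 0.05, where edgeR had 14. Of all 9123 genes tested, 1871 by DESeq2 and 2651 by edgeR were under that unadjusted p, and nothing is read from these counts. By edgeR the count of calls among the 45 was 2 without osa jaw 04, 1 without osa leg 04, and 0 without osa jaw 05, osa leg 05 or osa leg 07. Without osa jaw 07 it was also 1, but that gene was not among the 4 above. The share over all genes was 3.69% to 9.12% in these omissions.

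The widest ranges of x between osa numbers, 2.01 and 1.99, belonged to genes 35 and 44, which had low counts and did not pass the test. Genes 24, 8 and 20, which passed it, also had wide ranges, at 1.60, 1.49 and 1.32. Gene 35 stood at 13.2 and 19.6 CPM in leg of 04 and 05 but at 1.91 CPM in leg of 07. In jaw it had 19.8, 17.1 and 6.94 CPM in 04, 05 and 07 (edgeR adjusted p = 0.0504). Gene 44 had 23.0 CPM in leg and 20.1 CPM in jaw of 05, 5.26 and 4.4 CPM in 04, and 1.27 and 13.2 CPM in 07 (edgeR adjusted p = 0.0693). In leg of 07 these genes rested on 3 and 2 counts.

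**Figure D5:**
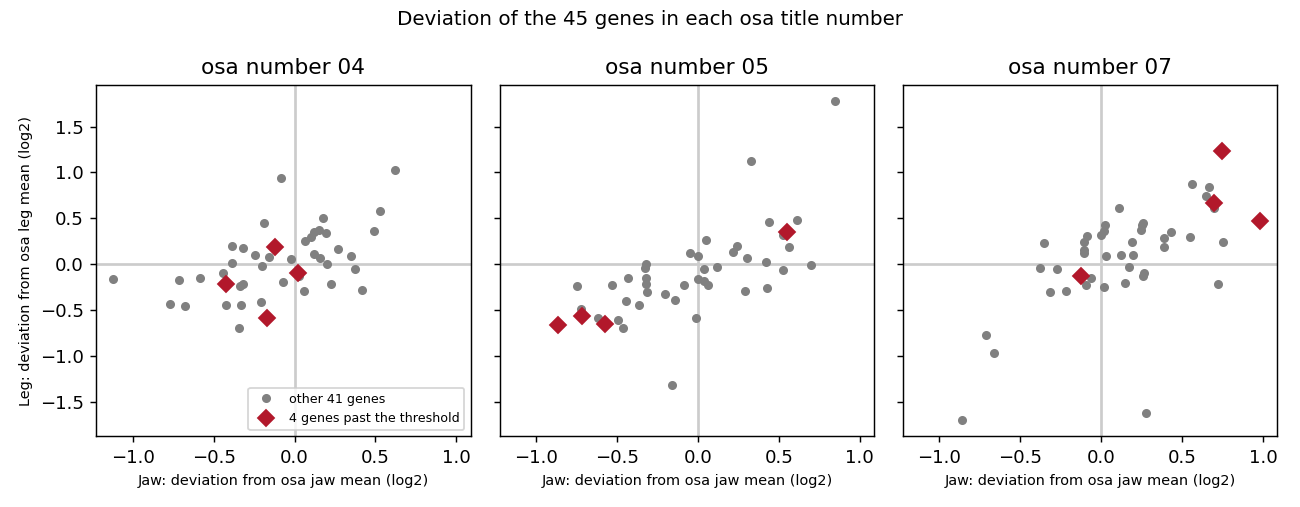
Deviation of each of the 45 genes from its osa group mean of log2(CPM + 1) in leg (vertical) and jaw (horizontal), 1 panel per osa title number. Red diamonds are the 4 genes past the threshold for a difference among numbers. The points rise along the diagonal in each panel, with correlations of 0.523, 0.677 and 0.633.

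The difference between leg and jaw was small in these genes because the rule limited it. Within osa the leg minus jaw difference of x ran from -0.88 to 0.86 with a median of -0.16, against 0.04 over all 6248 genes with an osa mean of at least 10 CPM. It was below 0 for 30 of the 45 genes. Leg was the lower muscle in 3 of 3 osa pairs for 13 genes and the higher one in 3 of 3 for 4. Over all 12 pairs the median was 0.03, within -0.44 to 0.37, and the difference was above 0 for 27 of the 45 genes. No shares over all genes stand beside these counts, and nothing is read from them.

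Without pairing by title number, edgeR's quasi-likelihood test of leg minus jaw passed 0 of the 45 genes at an adjusted p of 0.05 over all species. The share over all genes was 11.3%. Within osa it also passed 0 of the 45, where 1.86% of all genes passed. At an unadjusted p under 0.05 there were 1 and 2 of the 45 genes, against 2008 and 912 of all 9123 genes tested. DESeq2 called 0 of the 45 in both, where 13.0% and 2.49% of all genes were called. When leg and jaw were paired by title number in a blocked fit, 1 gene passed over all species and 2 within osa. The backgrounds were 24.9% and 9.46%. These were gene 9 over all species (edgeR adjusted p = 0.0199) and genes 3 and 13 within osa (edgeR adjusted p = 0.00363 and 0.0398). Since the muscle limit was part of the choice, nothing is read from the counts of genes passing. In the level of single genes, ENSACAG00000015712 had 129, 103 and 129 CPM in osa leg 04, 05 and 07, against 71.1, 52.1 and 75.0 CPM in osa jaw, and no leg library overlapped a jaw library. Gene 13 had 13.8, 21.0 and 23.6 CPM in osa leg, against 20.5, 41.7 and 52.8 CPM in osa jaw, with leg below jaw in each pair. Gene 9 had 27.0, 37.9 and 50.3 CPM in osa leg, against 35.9, 78.2 and 69.4 CPM in osa jaw, again with leg below jaw in each pair. Its call was over all species, and there the pairs were not unanimous. Leg was higher in 0 of 3 chlorocyanus pairs, 1 of 3 cybotes pairs and 1 of 3 sagrei pairs.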

How the data were processed

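A single table of raw counts was deposited by the authors, with 1 row per gene identifier and 1 column for each of the 24 libraries, named as the sample titles are. The submitters' processing notes name STAR. The version of STAR, the genome build, the annotation, the counting program and strand use were not given in the sources used here. Per the labels' protocols, whole muscle was extracted with Trizol and BGI prepared the libraries. Of the identifiers, 8688 were at 0 everywhere. The members and lists were chosen with earlier results of these data known, and lists of gene symbols could not be used because the table gives no names.

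Tests used edgeR 4.0.16 in R 4.3.3 (quasi-likelihood, TMM, filterByExpr) with Benjamini-Hochberg adjustment over all genes tested and a threshold of 0.05. DESeq2 1.42.0 was an alternative. Sagrei, chlorocyanus and cybotes were compared on 9 sums of leg and jaw counts. Leg and jaw were compared on 8 group means, a fit that ignores the pairing by title number, which only the replicate block used. The osa numbers were compared in a fit with a term per title number and a leg term per species. Standard errors were derived from the size of the fold change and its F statistic. Alternatives were other scalings, no filter, leg or jaw libraries alone, a replicate block, and omission of each library or number. The fits were tested on simulated data. Intervals are exact binomial intervals on the counts of a library or a pool of libraries, so they cover counting error only and leave out the spread between replicates. No molecular identifiers are mentioned.

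Whether title numbers pair the libraries was checked before calls were compared. Deviations from group means over 8011 genes correlated at 0.317 to 0.755 for leg and jaw of 1 number and at -0.678 to 0.0783 for different numbers, so numbers were taken as pairs, although the labels do not call them animals. The p-values therefore measure the spread between these samples, which may be technical. The 24 pairs of replicates within groups differed beyond sampling noise (chi-square per degree of freedom 7.30 to 61.3). The rule for named genes took the 20 highest by osa CPM, the 10 with the largest difference and the first 5 calls of each test, with at most 2 unnamed identifiers printed per direction. Values of other genes given by rank were chosen after their values were seen.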

Additional observations from a re-analysis of the deposited data

Results flagged for a closer look

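For 6 of the 45 genes every pair of a species moved one way between leg and jaw and every pair of another species moved the other way. These differences between species were not tested. No share over all genes stands beside the 6, so nothing is read from that count. The values are mean leg minus jaw differences of log2(CPM + 1) over 3 pairs. ENSACAG00000015712, which is gene 3, was higher in leg in 3 of 3 osa pairs (0.86) and in 3 of 3 cybotes pairs (0.41), while it was lower in leg in 3 of 3 chlorocyanus pairs (-0.36). Lower in leg in all osa pairs were gene 4 (-0.43), which was higher in leg in all chlorocyanus pairs (0.27), gene 5 (-0.39), higher in all cybotes pairs (0.95), and gene 13 (-0.88), higher in all sagrei pairs (0.74). Gene 13 stood in sagrei at only 1.31, 3.19 and 4.78 CPM in leg and 0, 3.04 and 1.96 CPM in jaw. Gene 23 was higher in leg in all sagrei pairs (0.58) and lower in all cybotes pairs (-0.84). Gene 25 was lower in leg in all sagrei pairs (-0.67) and higher in all chlorocyanus pairs (0.43). In sagrei it rested on 7, 3 and 1 counts in leg and 7, 5 and 4 counts in jaw. Gene 23 had 3 to 13 counts in single sagrei libraries and 2 to 9 in single cybotes libraries.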

How the results depend on the processing

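The number of genes in the set followed the limits: 134 with a difference of at least 1, 17 with at least 3, 21 with an osa mean of at least 20 CPM and 69 with no muscle limit, and 49 to 53 with 1 osa number left out. With TMM-scaled sizes it was 39, of which 36 were among the 45. For the difference among the low species, all 12 sums with osa included gave 19 of the 45 genes and 32.9% of all genes. All 45 then passed the filter, 22 of them through the osa sums, so nothing is read from that count. The leg libraries alone gave 6 of the 13 genes tested (1789 of 8125 over all genes). Omissions gave 6 to 10 of 24 to 27 tested (1915 to 3045 of all genes, or 19.3% to 30.5%). For sagrei against the other pair, the leg libraries alone gave 2 of 13 tested (744 of 8125 over all genes). Omissions gave 2 to 6 of 24 to 27 tested (725 to 1629 of all genes, or 7.26% to 16.5%). The osa numbers gave 0 of the 45 genes by DESeq2 (9.55% of all genes) and 8 without the low-count filter (9.53% of all genes). With a library left out they gave 0 to 2 (353 to 881 of all genes, or 3.69% to 9.12%). For leg minus jaw, the replicate block gave 1 of the 45 genes over all species (2268 of all genes, against 1027 without it) and 2 within osa (863, against 170). Within osa, all genes called were 270 without the low-count filter and 96 to 117 with an osa library left out, and over all species 892 to 1127. Omissions gave 0 of the 45 in both, but genes at 0 throughout a species could not be called over all species. The cause of these shifts was not tested. Depth limits the genes with few counts outside osa, of which 22 did not pass the filter without osa.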

Other observations

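The same criteria applied to the other species gave 17 genes highest in sagrei, 57 in chlorocyanus and 21 in cybotes, against 45 in osa. Turned round, they gave 14 genes lowest in osa, 10 in sagrei, 20 in chlorocyanus and 10 in cybotes. Among genes with a mean of at least 10 CPM in the other 18 libraries, 0.644% had all osa libraries below all others. A further 24 genes met every criterion of the osa set but the muscle limit, and 24 met every criterion but the gap between the lowest osa and the highest other library. These are counts of selected genes, with no test.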
